A study of Homo sapiens with 12 samples.

Results

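The genes described here were the small nuclear RNA (snRNA) genes that gave reads in HepG2 and Ls174 cells, grouped by the spliceosomal type of their name. A gene was taken when the deposited files gave it the biotype snRNA and its counts summed to 10 or more over all 12 libraries, which held for 127 of 1916 snRNA genes among the 57736 genes listed. The members were 32 of 140 U1 genes, 8 of 70 U2 genes, 7 of 89 U4 genes, 6 of 32 U5 genes, 59 of 1322 U6 genes, 6 of 65 genes of the minor spliceosome and 9 of 179 U7 genes, while 0 of 19 entries with other names reached the limit. Symbols without the pseudogene suffix P were carried by 34 members and symbols with it by 93. The sum ran over both treatments and lines, and the HepG2 libraries treated with the extract held the most snRNA reads, so that 30 members had fewer than 10 counts outside those libraries. At the limit, 6 members had 10 counts and 9 had 11, while 11 genes with 9 counts and 10 with 8 were left out.

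HepG2 is a cell line from a liver tumour and Ls174 one from a tumour of the colon, both human. Each line was grown for 24 h with HME, an extract of the red alga Hypnea musciformis, or without it, and RNA of 3 replicates per condition was sequenced, giving the groups HepG2 control, HepG2 HME, Ls174 control and Ls174 HME. The sample labels give the extract as 0.7 mg/ml, the concentration they call its IC50, and the methods of the study give a slightly different value. The study asked which genes respond to the extract in each line, and a mixture of compounds rather than a pure substance was added to a single line per tissue.

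The spliceosome removes introns with 5 small RNAs bound to proteins. U1 pairs with the 5′ splice site and U2 with the branch point, U4 delivers U6 in a base-paired complex that also holds U5, and U6 then forms the catalytic centre with U2. A rare class of introns uses the minor spliceosome with U11, U12, U4atac, U6atac and U5. U7 is not a splicing RNA and directs the 3′ end processing of replication-dependent histone mRNAs. U1, U2, U4, U5 and U7 genes are transcribed by RNA polymerase II and their transcripts are cut by the Integrator complex near a 3′ box a few bases past the mature end, whereas U6 and U6atac genes are transcribed by RNA polymerase III. Mature snRNAs carry no poly(A) tail. The human genome holds many copies and pseudogenes of each type, so that a symbol with the suffix P names a copy and does not say whether it is transcribed.

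Mature RNAs of 3 types are shown first, since the counted windows lie beside them. In RNU1-1 (chr1:16840617-16840780, minus strand, 164 nt, GRCh37), a U1 gene, the capitals mark the letters that pair with the 5′ splice site. In RNU2-2P (chr11:62609091-62609281, minus strand, 191 nt), a U2 gene with a complete body in spite of its symbol, they mark those that pair with the branch point. RNU4ATAC (chr2:122288457-122288583, plus strand, 127 nt) encodes U4atac and is printed without capitals.
RNU1-1: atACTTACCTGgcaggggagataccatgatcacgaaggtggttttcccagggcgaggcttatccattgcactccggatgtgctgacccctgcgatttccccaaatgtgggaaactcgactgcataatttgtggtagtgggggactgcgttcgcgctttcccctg
RNU2-2P: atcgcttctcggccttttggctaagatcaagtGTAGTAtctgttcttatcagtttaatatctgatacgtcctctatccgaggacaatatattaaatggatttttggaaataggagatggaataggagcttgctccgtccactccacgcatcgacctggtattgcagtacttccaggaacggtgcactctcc
RNU4ATAC: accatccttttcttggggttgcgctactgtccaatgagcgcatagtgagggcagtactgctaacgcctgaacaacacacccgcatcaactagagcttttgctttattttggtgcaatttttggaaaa

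The reads were not counted over these bodies. Every snRNA gene has exactly 1 region of 197 nt in the files, and in all 127 members, as in all 1912 snRNA genes found in the annotation, this window starts at base 1 past the annotated 3′ end of the RNA. The values below are therefore counts of reads assigned to the 197 nt downstream of the mature RNA and are not a level of the mature RNA. Reads were produced with a 3′ kit that primes on runs of A. The window lay in no other annotated gene for 39 members, in an intron of another gene for 44 members on the same strand and 22 on the opposite strand, and in an exon for 21 members on the same strand and 1 on the opposite strand, and the handling of strand is not given in the sources used here, so that reads of such a host gene cannot be told apart from those of the snRNA gene. For 10 members the window overlapped a counted region of another gene.

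The first bases of the windows are shown for the U1 copies that carried most of the U1 reads and for leading copies of other types, 5′ to 3′ on the strand of the gene. Capitals in the first set mark the letters of a 3′ box (GTTT and AAA with up to 3 bases between them in the first 60 nt past the end, on the strand of the gene). These letters stood in 12 of 32 U1 members, in 13 of 127 members (10.2%) and in 101 of 1912 snRNA genes (5.28%).
RNU1-1 (chr1:16840557-16840616, minus strand): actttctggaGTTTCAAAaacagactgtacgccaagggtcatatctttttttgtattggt
RNU1-2 (chr1:17222639-17222698, plus strand): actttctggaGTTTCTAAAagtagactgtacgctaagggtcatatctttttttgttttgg
RNU1-4 (chr1:17067175-17067234, plus strand): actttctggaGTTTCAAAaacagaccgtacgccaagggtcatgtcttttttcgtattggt
RNVU1-18 (chr1:149223998-149224057, minus strand): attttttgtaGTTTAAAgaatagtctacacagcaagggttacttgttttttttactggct
RNU1-28P (chr14:35025372-35025431, minus strand): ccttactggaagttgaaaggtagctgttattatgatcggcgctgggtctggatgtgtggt
RNVU1-9 (chr1:147510944-147511003, minus strand): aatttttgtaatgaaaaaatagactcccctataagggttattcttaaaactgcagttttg
RNU2-2P (chr11:62609031-62609090, minus strand): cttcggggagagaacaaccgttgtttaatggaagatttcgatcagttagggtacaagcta
RNU4-2 (chr12:120729506-120729565, minus strand): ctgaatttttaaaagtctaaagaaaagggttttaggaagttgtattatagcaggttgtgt
RNU4ATAC (chr2:122288584-122288643, plus strand): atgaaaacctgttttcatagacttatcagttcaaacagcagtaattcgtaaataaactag

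A second set shows U6 copies, whose windows share no such box, with their runs of A in capitals. A run of 8 or more A in the first 20 nt was found in 26 of 127 members (20.5%) and in 202 of 1912 snRNA genes (10.6%), and in 16 of the 59 U6 members. RNU6-11P and RNU6-37P were chosen for display after their values were seen.
RNU6-1 (chr15:68132237-68132276, minus strand): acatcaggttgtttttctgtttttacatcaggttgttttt
RNU6-8 (chr14:32672329-32672368, minus strand): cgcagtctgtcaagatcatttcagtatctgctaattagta
RNU6-11P (chr7:123430619-123430658, minus strand): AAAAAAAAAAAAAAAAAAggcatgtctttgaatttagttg
RNU6-37P (chr1:10359131-10359170, plus strand): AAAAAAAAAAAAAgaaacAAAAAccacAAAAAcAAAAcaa

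Several U1 copies cannot be separated by the sequence of their bodies, and some of them not by their windows either. RNU1-1, RNU1-2, RNU1-3, RNU1-4, RNVU1-18, RNU1-27P and RNU1-28P have bodies that are 100% identical over 164 nt, and RNVU1-7 and RNVU1-9 are 99.4% identical to them. The whole 197 nt window of RNU1-3 equals that of RNU1-4, the window of RNU1-27P equals that of RNU1-28P, and the window of RNVU1-7 equals that of RNVU1-9. Other windows of these copies differ. That of RNU1-1 is 93.4% identical to that of RNU1-2, 67.0% to that of RNVU1-18 and 57.4% to that of RNU1-27P. The windows of RNVU1-13, RNVU1-14, RNVU1-15 and RNVU1-19 are 97% to 99.5% identical to each other. How reads with several equal alignments were assigned is not given in the sources used here, so the values of single genes within each of these sets are uncertain and the sets are not independent observations.

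The libraries held between 1790841 (HepG2 HME 3) and 3656662 (HepG2 control 1) counts. Markers of liver summed to 10730 to 19170 CPM (counts scaled by TMM to a common library size) in HepG2 libraries and to 37.9 to 183.3 in Ls174 libraries, while markers of colon summed to 70.4 to 217.3 and to 269.5 to 411.6 CPM. Library HepG2 control 2 stood apart from the other HepG2 controls (chi-square per degree of freedom of 54.1 and 49.1, against 13.6 between those), and Ls174 control 1 stood apart from the other Ls174 controls (34.5 and 37.0, against 5.68). HepG2 HME 2 held 1022 CPM of the mesenchymal markers COL1A1, COL1A2, COL3A1 and VIM, against at most 10.9 CPM in every other HepG2 library.

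All members together gave 1050, 656 and 767 counts in HepG2 control libraries 1 to 3 and 5236, 3529 and 2495 in HepG2 HME libraries. In Ls174 control libraries they gave 175, 280 and 541 counts and in Ls174 HME libraries 403, 592 and 536. As a share of all counts, snRNA genes took 0.0326% to 0.0398% of the HepG2 control libraries and 0.104% to 0.192% of the HepG2 HME libraries, and 0.0095% to 0.0175% and 0.0162% to 0.0242% in Ls174. The shares of other small RNAs did not separate the HepG2 groups, with small nucleolar RNA at 3.27% to 5.32% in control and 3.38% to 5.64% in HME libraries, and microRNA at 0.0702% to 0.0997% and 0.0731% to 0.0964%.

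Of the 16260 counts of the members, U1 genes held 57.4%, U6 genes 16.8%, U2 genes 13.8%, the minor spliceosome 5.97%, U7 genes 2.52%, U4 genes 1.8% and U5 genes 1.63%. A single U2 gene, RNU2-2P, held 12.3%. The sums are descriptions with no test, because the members were selected on their counts.

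**Figure D1:**
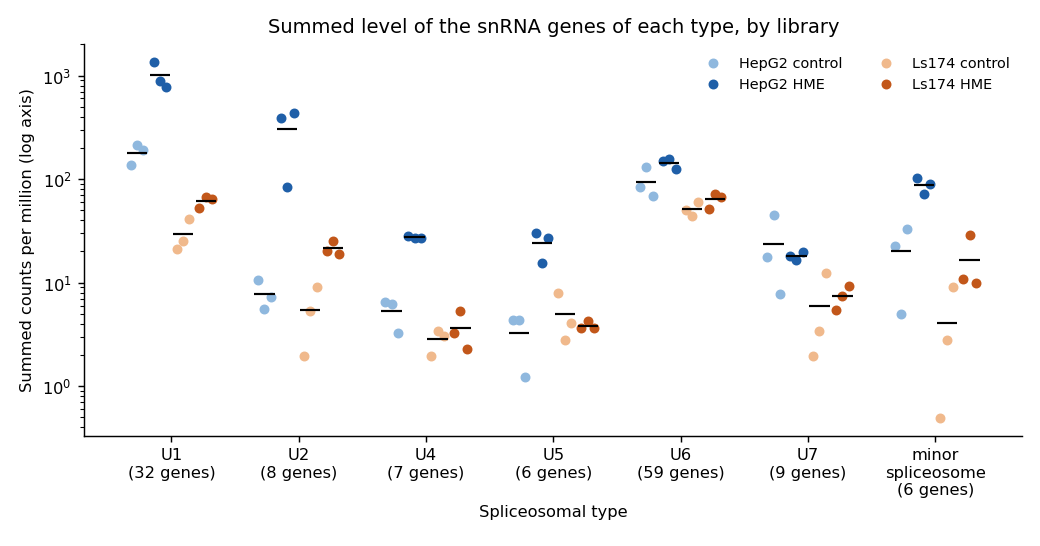
Summed CPM (log axis) of the snRNA genes of each spliceosomal type, with 1 point per library, 3 libraries per group and a bar at the group mean. In HepG2 cells the HME points of U1, U2, U4, U5 and the minor spliceosome lie above every control point, those of U6 and U7 overlap with the control, and the distance is widest for U2.

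In HepG2 cells the summed level of the U1 genes went from 179.4 ± 38.5 CPM (SD, n = 3) in control to 1004 ± 310 CPM with HME, a ratio of 5.6. The U2 genes went from 7.79 ± 2.48 to 302.3 ± 191 CPM, a ratio of 38.8, with HME 2 at 83.4 CPM well below the other HME libraries at 388.6 and 434.8 CPM. The U4 genes went from 5.3 ± 1.8 to 27.4 ± 0.569 CPM and the U5 genes from 3.29 ± 1.8 to 24.2 ± 7.66 CPM, ratios of 5.17 and 7.36. The minor spliceosome genes went from 20.2 ± 14.2 to 87.8 ± 15.2 CPM, a ratio of 4.34. In each of these 5 types the HepG2 groups did not overlap. The U6 genes, at 94.3 ± 32.7 CPM in control and 142.2 ± 16.4 CPM with HME, and the U7 genes, at 23.3 ± 19.3 and 18.2 ± 1.6 CPM, overlapped between the groups. Over all members the ratio was 4.81, and without RNU2-2P it was 4.03.

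In Ls174 cells the ratio of HME to control over all members was 1.71. The U1 genes went from 29.4 ± 10.7 to 61.4 ± 8.1 CPM (ratio 2.09), the U2 genes from 5.4 ± 3.5 to 21.3 ± 3.45 CPM (ratio 3.95) and the minor spliceosome genes from 4.08 ± 4.38 to 16.5 ± 10.6 CPM (ratio 4.05), with no overlap of the groups in these 3 types. The U4 genes, at 2.82 ± 0.756 and 3.64 ± 1.55 CPM, the U5 genes, at 4.92 ± 2.64 and 3.84 ± 0.369 CPM, the U6 genes, at 51.4 ± 7.97 and 63.8 ± 10.9 CPM, and the U7 genes, at 5.89 ± 5.59 and 7.38 ± 1.87 CPM, overlapped. In bulk RNA, fewer cells of a kind and less RNA per cell cannot be told apart.

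The test of single genes used edgeR's quasi-likelihood test across all genes within a line, where a gene was called if it passed both thresholds of the study, 0.05 for the unadjusted p and 0.58 for the size of the log2 fold change, with a stricter call at a Benjamini-Hochberg adjusted p under 0.05. A filter on low counts left 34 of the 127 members in HepG2 cells. Of these, 27 were called higher with HME and 0 lower, where 11.3% of all 11343 genes tested were called higher and 10.9% lower. By adjusted p, 22 were called higher and 0 lower, against 2.77% and 0.538% of all genes. With library size alone as the scale, the unadjusted calls over all genes were 861 higher and 1729 lower in place of 1282 and 1235, and those of the members stayed at 27 and 0. A member that is near 0 in the control could pass the filter only by being high with HME, so these counts do not describe the members as a whole. In 12 members every control library was itself above the level of the filter, and of those 9 were called higher (8 by adjusted p) and 0 lower. The 8 called by adjusted p were RNU1-1, RNU1-2, RNU1-3, RNU1-4, RNVU1-18, RNU1-27P, RNU1-28P and RNVU1-9. These U1 copies have identical or nearly identical bodies and are not taken as independent observations.

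Without the filter, 124 members had a value in HepG2 cells, of which 48 were called higher and 9 lower, against 7.79% and 7.90% of 24458 genes. By adjusted p the counts were 39 and 2, against 3.36% and 2.40%. The median log2 fold change was 2.98 over the 34 members that passed the filter and 0.98 over the 124, and -0.04 over all genes that passed. Among the 97 members with 10 or more counts outside the HepG2 HME libraries, 31 passed the filter, and 24 of them were called higher and 0 lower. Of the 22 members called by adjusted p, 9 remained so in every fit without 1 library, and these were RNU1-1, RNU1-2, RNU1-3, RNU1-4, RNVU1-18, RNU1-27P, RNU1-28P, RNU2-2P and RNU4-2. The U1 genes among these 9 have identical bodies and are not taken as independent observations. The other 13 of the 22 lost the adjusted call in at least 1 such fit, where their highest edgeR adjusted p ran from 0.0606 (RNU5E-6P, without control 1) to 0.165 (RNU6-1, without HME 2). The fit without HME 2 also gave the highest adjusted p of RNU4-1 (0.115), RNVU1-13 (0.105) and RNVU1-19 (0.0904) in edgeR. Without HepG2 control 2 the adjusted count was 35 of 45 tested members, without HME 2 it was 13 of 39 and without HME 3 it was 9 of 39. The calls over all genes moved as well. By adjusted p they were 675 higher and 246 lower of 11899 without control 2. They were 138 and 4 of 11726 without HME 2 and 94 and 1 of 11987 without HME 3. With every library they were 314 and 61 of 11343.

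U1 genes gave the largest number of calls. Of the 32 members, 16 passed the filter in HepG2 cells and 14 of them were called higher, all 14 by adjusted p. RNU1-1, the U1 gene with the second largest sum, gave 28, 27 and 36 counts in control libraries and 537, 449 and 204 with HME. Every HME library lay above every control library. Its mean rose from 13.0 ± 4.84 to 164.6 ± 45.3 CPM (SD, n = 3), with a log2 fold change of 3.69 ± 0.43 (SE, edgeR adjusted p = 0.00249). RNVU1-18, a variant U1 gene with the same body, gave 26, 13 and 16 counts in control and 399, 274 and 122 with HME, a log2 fold change of 3.94 ± 0.41 (edgeR adjusted p = 0.00208).

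Members that share a window are given in pairs. RNU1-3 and RNU1-4 rose by 3.83 ± 0.46 and 3.64 ± 0.41 on the log2 scale, RNU1-27P and RNU1-28P by 3.34 ± 0.43 and 3.63 ± 0.43, and RNVU1-7 and RNVU1-9 by 2.42 ± 0.46 and 2.17 ± 0.44, with edgeR adjusted p values between 0.0022 and 0.0293. RNU1-2 rose by 3.37 ± 0.46 (edgeR adjusted p = 0.00456). In all of these the HepG2 groups did not overlap. The 10 members whose body was 95% or more identical to RNU1-1 summed to 79.6 ± 23.5 CPM in control and 843 ± 314 CPM with HME, a ratio of 10.6, and the other 22 to 99.8 ± 16.9 and 160.8 ± 8.55 CPM, a ratio of 1.61. In the sum of the 22, RNU1-125P alone held 81.4 CPM in control and 84.0 CPM with HME. Without the filter, 10 of the 22 were called higher and 1 lower, with a median log2 fold change of 2.54. Of the 10 closer members 9 were called higher and 0 lower, with a median of 3.52. Over all genes in that fit 7.79% were called higher and 7.90% lower. The limit of 95% was chosen after the values were seen. As set out above, the closer members are not taken as independent observations.

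The U1 gene with the largest sum was not called. RNU1-125P, whose body is 60.4% identical to RNU1-1, has its window in an exon of IL32, a cytokine gene, on the same strand, and gave 237, 138 and 234 counts in HepG2 control and 230, 194 and 154 with HME. The groups overlapped, at 81.4 ± 15.9 and 84.0 ± 13.4 CPM, with a log2 fold change of 0.05 ± 0.31 (edgeR adjusted p = 0.938). RNU1-103P, 65.2% identical to RNU1-1 and within an exon of EMC8, gave 15, 20 and 12 counts in control and 12, 8 and 7 with HME, which also overlapped in CPM, with a log2 fold change of -0.80 ± 0.59 (edgeR adjusted p = 0.446).

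Variant U1 genes with bodies 87.9% to 93.3% identical to RNU1-1 were close to absent in HepG2 control libraries. RNVU1-14 gave 0, 1 and 0 counts in control and 12, 16 and 15 with HME, with mean CPM of 0.208 and 6.47. The ratio of its counts pooled over each group, scaled by the pooled library sizes, was 47.8 with a 95% counting interval of 8.13 to 1930, and RNVU1-13 gave 0, 0 and 3 counts and then 20, 32 and 12, a pooled ratio of 23.7 (7.75 to 118). Their edgeR adjusted p values were 0.0183 and 0.0257. RNVU1-15, with 2, 0 and 0 counts in control and 16, 17 and 7 with HME, and RNVU1-19, with 2, 0 and 1 and then 14, 16 and 8, had adjusted p values of 0.0213 and 0.0196 in edgeR. RNVU1-17 (1, 0 and 1 counts in control, 15, 10 and 12 with HME) and RNVU1-16 (0 in all 3 controls, 12, 13 and 8 with HME) did not pass the filter, and RNVU1-16 was at least 2.52-fold higher with HME than a control at its highest floor of 3 counts per library (1.87 CPM). RNVU1-6 gave 2, 0 and 0 counts in control and 6, 17 and 1 with HME, so that its HME value rests on HME 2. RNVU1-3, RNVU1-4, RNVU1-5, RNVU1-12 and RNVU1-20 had between 10 and 28 counts in all 12 libraries.

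Promoter and 3′ end letters divided the U1 members in another way. The letters ACCG and, after a gap of 8 bases, AA were searched on both strands between 80 and 37 bases upstream, where the proximal sequence element bound by the snRNA activating complex lies. They stood in 12 of 32 U1 members (37.5%), in 13 of 127 members and in 21 of 1912 snRNA genes (1.1%). By type they stood in 15 of 140 U1 genes, 6 of 1322 U6 genes and 0 of the U2, U4, U5 and U7 genes. The pattern is therefore mostly one of U1 genes, and its absence does not say that the element is absent. Both these letters and a 3′ box were held by 6 U1 members (RNU1-1, RNU1-2, RNU1-3, RNU1-4, RNVU1-18 and RNVU1-6), and 6 held the promoter letters alone (RNVU1-13, RNVU1-14, RNVU1-15, RNVU1-16, RNVU1-17 and RNVU1-19). RNU1-27P, RNU1-28P, RNVU1-7 and RNVU1-9, which rose in HepG2 cells, held neither set of letters in the stretches searched. Whether they hold either element in other letters was not tested. The octamer ATTTGCAT, searched on both strands in the 250 bases upstream, stood in 0 of 32 U1 members, 5 of 6 U5 members, 15 of 127 members (11.8%) and 63 of 1912 snRNA genes (3.29%).

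**Figure D2:**
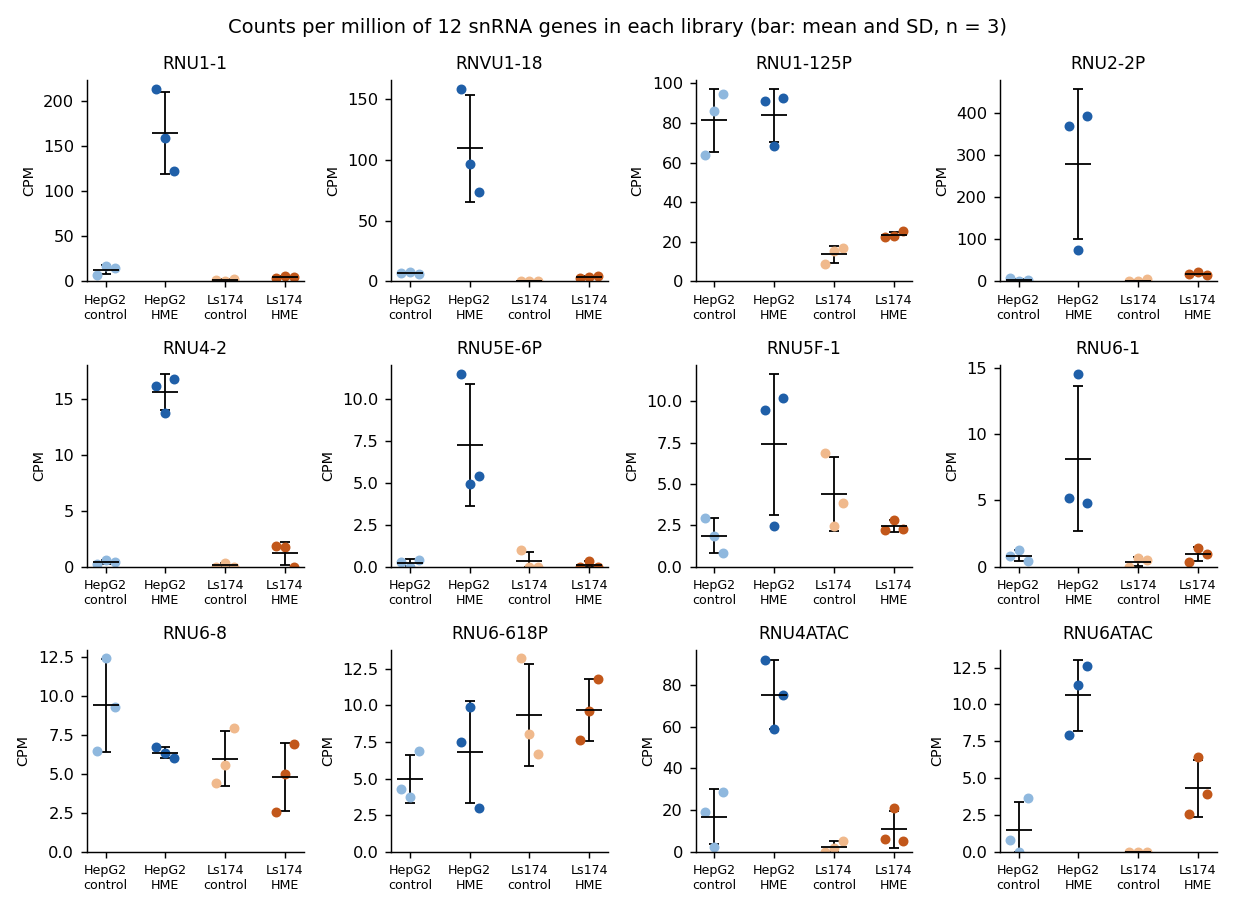
CPM of 12 snRNA genes in each library, with 1 point per library and a black bar for the mean and SD of 3 libraries (the lower end stops at 0). RNU1-1, RNVU1-18, RNU2-2P, RNU4-2, RNU5E-6P, RNU4ATAC and RNU6ATAC are higher in every HepG2 HME library than in any HepG2 control library, while RNU1-125P, RNU6-8 and RNU6-618P overlap.

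RNU2-2P, a U2 gene on chromosome 11 in spite of its pseudogene symbol, had the largest change of all members tested in HepG2 cells. It gave 27, 2 and 8 counts in control and 931, 211 and 653 with HME. The groups did not overlap, and HME 2 was the lowest of the HME libraries. Its mean rose from 3.91 ± 3.06 to 278.4 ± 177 CPM (SD, n = 3), with a log2 fold change of 6.05 ± 0.78 (edgeR adjusted p = 0.00354), and stayed between 5.73 and 6.86 in the fits without 1 library. Its window lies in an exon of WDR74 on the same strand. WDR74, a factor of ribosome assembly, is counted in regions of its own and was at 20.2 ± 6.92 CPM in HepG2 control and 19.6 ± 2.21 CPM with HME.

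The other U2 members were pseudogene copies with far fewer reads. RNU2-59P, 92.7% identical to RNU2-2P, gave 0, 0 and 1 counts in HepG2 control and 15, 13 and 20 with HME and did not pass the filter. RNU2-38P gave 0 counts in all 3 control libraries and 16, 3 and 18 with HME, at least 3.25-fold above the floor, and RNU2-6P gave 1, 0 and 0 and then 8, 2 and 23, and in both of these HME 2 was again the lowest HME library. They were chosen after their values were seen.

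Of the 7 U4 members, the 2 without the suffix passed the filter and rose in HepG2 cells. RNU4-2, the main U4 gene, gave 1 count in each control library and 41, 39 and 28 with HME, a log2 fold change of 5.17 ± 0.56 (edgeR adjusted p = 0.00208), with a 95% counting interval of the pooled ratio from 13.3 to 197. RNU4-1, its neighbour on chromosome 12, gave 2, 1 and 5 counts and then 20, 29 and 13, a log2 fold change of 3.02 ± 0.59 (edgeR adjusted p = 0.0257). In both genes every HME library was above every control library. The 5 U4 copies with the suffix had 11 to 28 counts over all libraries, and without the filter 0 of them was called higher and 1 lower (RNU4-58P, with 8, 4 and 0 counts in control and 0 with HME, edgeR adjusted p = 0.107).

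Among the 6 U5 members only RNU5E-6P passed the filter. It gave 1, 0 and 1 counts in HepG2 control and 29, 14 and 9 with HME, a pooled ratio of 28.9 with a counting interval of 7.6 to 245 and an edgeR adjusted p of 0.0138. RNU5E-1 gave 0 counts in all control libraries and 9, 13 and 7 with HME, at least 2.21-fold above the floor, and RNU5B-1 gave 0, 1 and 0 and then 8, 7 and 6. RNU5A-1, with 0 counts in control, gave 6, 1 and 6 with HME, at least 1.13-fold above the floor. RNU5F-1, the U5 member with the largest sum, gave 11, 3 and 2 counts in control and 24, 7 and 17 with HME. Its groups overlapped, at 1.88 ± 1.07 and 7.39 ± 4.28 CPM, since HME 2 at 2.48 CPM lay below control 1 at 2.96 CPM.

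U6 genes, the most numerous type, divided by their likeness to RNU6-1, the reference U6 gene. Of the 59 members, 10 passed the filter in HepG2 cells and 7 of these were called higher (4 by adjusted p) and 0 lower. RNU6-1 gave 3, 2 and 1 counts in control and 13, 41 and 8 with HME, with its highest value in HME 2, and rose by 3.35 ± 0.71 on the log2 scale (edgeR adjusted p = 0.035), a call that was lost without HME 2 (0.165). RNU6-7 gave 4, 1 and 4 counts and then 15, 14 and 12, a log2 fold change of 2.36 ± 0.55 (edgeR adjusted p = 0.0502). RNU6-9 gave 4, 3 and 1 and then 12, 14 and 7, a log2 fold change of 2.12 ± 0.62 (edgeR adjusted p = 0.0917). RNU6-2 gave 1, 2 and 3 counts in control and 19, 12 and 7 with HME and did not pass the filter. In these 4 genes the groups did not overlap in CPM.

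RNU6-8, 99.1% identical to RNU6-1 and next to RNU6-7 on chromosome 14, was not called, with 24, 20 and 23 counts in control and 17, 18 and 10 with HME. It was at 9.4 ± 3 and 6.37 ± 0.361 CPM with overlapping groups, and its log2 fold change was -0.52 ± 0.44 (edgeR adjusted p = 0.506). RNU6-618P, 85.7% identical to RNU6-1 and the U6 member with the largest sum, gave 16, 6 and 17 counts in control and 19, 28 and 5 with HME, a log2 fold change of 0.50 ± 0.52 (edgeR adjusted p = 0.608). RNU6V, with 1 count in each control library and 4, 0 and 0 with HME, did not pass the filter. RNU6-11P and RNU6-37P, whose windows open with the A runs shown above, gave 10, 2 and 2 and 23, 10 and 10 counts in control and 40, 30 and 22 and 48, 39 and 25 with HME, log2 fold changes of 2.95 ± 0.53 and 1.55 ± 0.39 (edgeR adjusted p = 0.018 and 0.0652). They do not stand for all members with such runs. Without the filter, 25 members of all types with a run of 8 or more A had a value. Of these 3 were called higher and 4 lower, with a median log2 fold change of -0.4. Of the 99 members with shorter runs 45 were called higher and 5 lower, with a median of 2.12. Over all genes in that fit the shares were 7.79% and 7.90%.

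Split at 95% identity to RNU6-1, a limit chosen after the values were seen, the 17 closer copies summed to 30.3 ± 10.5 CPM in HepG2 control and 97.7 ± 10.8 CPM with HME, a ratio of 3.22 without overlap. The 42 more distant copies summed to 64.0 ± 22.3 and 44.5 ± 12.4 CPM, a ratio of 0.696 with overlap. Without the filter, 13 of the 17 closer copies were called higher and 0 lower, and of the 40 distant copies with a value 1 was called higher and 6 lower. The median log2 fold changes were 2.4 and -0.62. Bodies identical to that of RNU6-1, itself included, were held by 7 members. How reads with equal alignments were assigned is not given, so the closer copies are not taken as independent observations. Over all members, the 34 symbols without the suffix gave 28 calls higher and 0 lower without the filter, and the 90 with the suffix and a value gave 20 and 9.

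**Figure D3:**
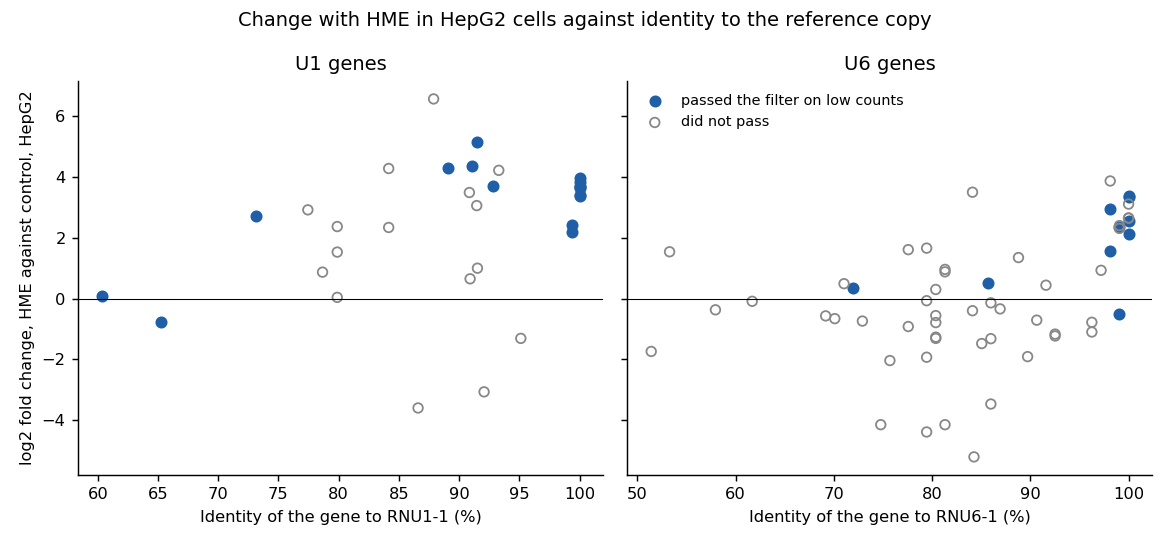
Log2 fold change of each U1 and U6 gene with HME in HepG2 cells (fit without the filter on low counts) against the identity of its body to RNU1-1 or RNU6-1 in percent, filled where the gene passed the filter. The U6 genes at 95% identity or more lie mostly above 0, with RNU6-8 at -0.5 among the exceptions, and those below it lie on both sides of 0.

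Within the minor spliceosome, RNU4ATAC gave 71, 4 and 71 counts in HepG2 control and 233, 167 and 125 with HME. The groups did not overlap, and control 2 was the lowest by far. Its mean went from 16.8 ± 13.3 to 75.4 ± 16.6 CPM, and the log2 fold change was 2.17 ± 0.59 with an unadjusted p of 0.00456 and an adjusted p of 0.0772 in edgeR. RNU6ATAC, which pairs with it, gave 3, 0 and 9 counts and then 20, 32 and 21, a log2 fold change of 2.76 ± 0.74 with an unadjusted p of 0.00401 and an adjusted p of 0.0722. Both passed the thresholds of the study and neither the adjusted one, while DESeq2 gave adjusted p values of 0.00672 and 0.0057. The remaining 4 members, all with the suffix, had 11 to 26 counts in all. RNU11 and RNU12, which encode the other RNAs of this spliceosome, carry the biotype lincRNA in the files and are no members. RNU11 gave 2, 3 and 8 counts in HepG2 control and 54, 26 and 8 with HME, and RNU12 gave 1, 0 and 0 and then 20, 17 and 11.

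Of the 9 U7 members 2 passed the filter in HepG2 cells and 0 were called in edgeR, at an unadjusted or an adjusted p. RNU7-77P, in an intron of CREM, gave 12, 45 and 12 counts in HepG2 control, with its high value in control 2, and 22, 22 and 4 with HME, a log2 fold change of -0.84 ± 0.83 (edgeR adjusted p = 0.584). RNU7-45P, in an intron of CFLAR, gave 23, 14 and 4 counts and then 3, 13 and 11, a log2 fold change of -0.42 ± 0.73 (edgeR adjusted p = 0.762). RNU7-1, the functional U7 gene, gave 5, 0 and 0 counts in control and 11, 5 and 3 with HME, at 0.448 ± 0.776 and 2.64 ± 1.48 CPM, and did not pass the filter.

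In Ls174 cells 7 members passed the filter, of which 3 were called higher with HME and 0 lower, where 4.11% of 11319 genes were called higher and 7.85% lower. By adjusted p, 0 members were called in edgeR, against 0.318% of genes higher and 0.866% lower, and 2 in DESeq2 (RNU2-2P and RNU6-817P), while 3 members had an unadjusted p under 0.05. Over all 11319 genes DESeq2 called 143 higher and 291 lower by adjusted p. Without the filter 11 of 122 members were called higher and 1 lower, against 4.11% and 6.33% of 22568 genes, and 4 and 0 by adjusted p, against 0.824% and 1.85%. Without Ls174 control 1, 9 of 14 tested members were called higher and 4 by adjusted p, and without Ls174 control 3, 9 of 13 were called higher and 0 by adjusted p in edgeR. Over all genes, the fit without control 1 called 747 of 11673 higher and 1077 lower, and 357 and 622 by adjusted p. The fit without control 3 called 633 of 11609 higher and 1069 lower, and 5 and 5 by adjusted p. With every library the adjusted calls were 36 and 98 of 11319. The filter again favours members high with HME: 3 of the 7 had every control library above its level (RNU1-125P, RNU6-618P and RNU6-8), and 1 of those was called higher.

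RNU2-2P again had the largest change among the members tested, with 0, 5 and 19 counts in Ls174 control and 46, 60 and 46 with HME. The groups did not overlap, at 2.14 ± 2.48 and 17.7 ± 3.22 CPM, and the log2 fold change was 2.87 ± 0.71 with an unadjusted p of 0.00319 and an adjusted p of 0.115 in edgeR (0.00106 without 1 library at the lowest and 0.545 at the highest). RNU6-817P gave 0, 5 and 2 counts in control and 15, 18 and 15 with HME, a log2 fold change of 2.83 ± 0.74 (unadjusted p = 0.00458, edgeR adjusted p = 0.138). RNU1-125P went from 13.8 ± 4.3 to 23.6 ± 1.52 CPM, and its log2 fold change was 0.75 ± 0.30 (unadjusted p = 0.0333, edgeR adjusted p = 0.328), and IL32, in whose exon it lies, went from 37.6 ± 3.63 to 54.5 ± 1.27 CPM. A counted region of IL32 overlaps the window of RNU1-125P on the same strand, so the values of these genes can share reads.

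RNU1-1 gave 3, 2 and 12 counts in Ls174 control and 10, 16 and 14 with HME, which did not overlap in CPM, with a log2 fold change of 1.36 ± 0.63 (unadjusted p = 0.0622, edgeR adjusted p = 0.393). The 10 U1 genes of 95% identity or more summed to 8.95 ± 6.45 CPM in control and 28.1 ± 9.5 CPM with HME, a ratio of 3.14. RNU4ATAC gave 0, 6 and 21 counts and then 17, 59 and 15, overlapping, with a log2 fold change of 2.00 ± 0.90 (unadjusted p = 0.0564, edgeR adjusted p = 0.385). RNU6ATAC gave 0 counts in all 3 control libraries and 7, 18 and 12 with HME, at least 2.91-fold above the highest control floor of 1.47 CPM, and did not pass the filter. RNU6-2 gave 0, 7 and 5 counts in control and 23, 12 and 6 with HME, and these groups overlapped, as did those of RNU6-8 (9, 18 and 31, then 7, 14 and 21) and RNU6-618P (27, 26 and 26, then 21, 27 and 36). RNU4-2 gave 0, 1 and 0 and then 5, 5 and 0 counts.

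Whether the change with HME differed between the lines was tested as the interaction of line and treatment over all 12 libraries, where 42 members passed the filter. At the thresholds of the study 11 members had a larger and 2 a smaller log2 change in HepG2 than in Ls174 cells, against 7.42% and 5.75% of 13040 genes. By adjusted p, 0 members differed in edgeR, against 0.613% and 0.0307% of genes, while 13 had an unadjusted p under 0.05 and DESeq2 called 1 (RNU1-1). Over all 13040 genes DESeq2 called 309 higher and 71 lower by adjusted p. In simulated counts the edgeR interaction test found 6 of 100 genes changed 2-fold, so the lack of calls does not show equal changes. The difference of the log2 changes was 3.15 ± 1.07 for RNU2-2P (unadjusted p = 0.0107, edgeR adjusted p = 0.22), 2.35 ± 0.68 for RNU1-1 (unadjusted p = 0.00371, edgeR adjusted p = 0.151) and 2.18 ± 0.71 for RNU1-4 (unadjusted p = 0.00793, edgeR adjusted p = 0.199). It was -2.92 ± 1.18 for RNU6-817P (unadjusted p = 0.0265, edgeR adjusted p = 0.299) and 0.16 ± 1.21 for RNU4ATAC (edgeR adjusted p = 1). The other member with a smaller change in HepG2 cells was RNU6ATAC, also of the minor spliceosome. RNU6ATAC had 0 counts in all 3 Ls174 control libraries, so its fitted difference depends on the prior count. The median difference over the 2 members of that type tested, -1.83, therefore describes neither gene.

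**Figure D4:**
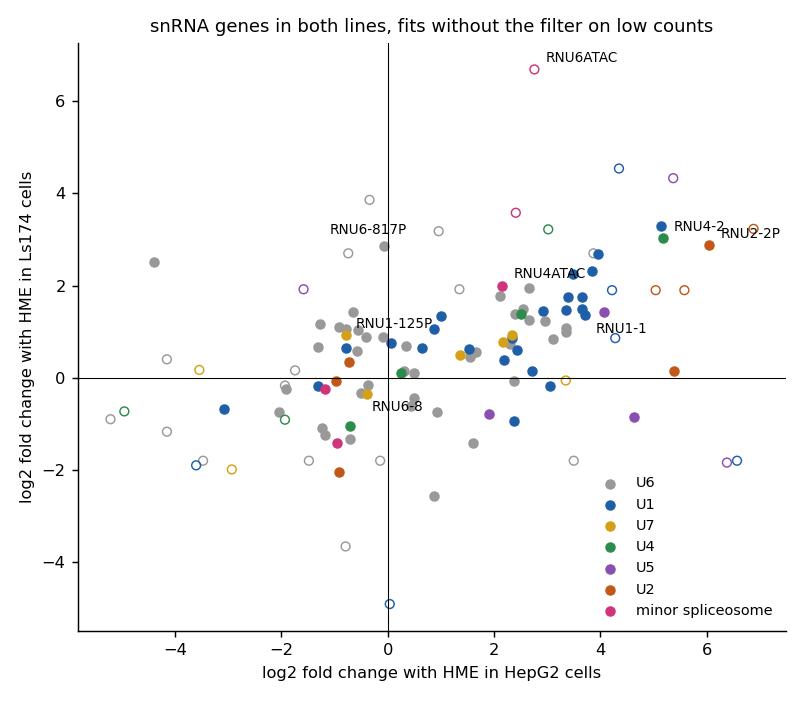
Log2 fold change with HME of 119 snRNA genes with a value in both lines, HepG2 cells on the horizontal and Ls174 cells on the vertical axis, from fits without the filter on low counts, coloured by type. Open circles mark 35 genes at 0 counts in a whole group, whose fitted changes depend on the prior count, and 58 genes lie above 0 on both axes.

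Between the lines without extract, 14 members passed the filter, and 12 were higher in HepG2 control than in Ls174 control cells and 0 lower, where 19.5% of 11907 genes were called higher and 15.4% lower. By adjusted p, 10 were higher and 0 lower, against 14.2% and 9.33%, and all 10 were U1 genes. Of these 10, 8 had bodies 95% or more identical to RNU1-1 and are not taken as independent observations. Of the 14, 11 passed the filter only through HepG2 control or a mix of both groups and all 11 of these were called higher, so that the count does not describe the members as a whole. In 3 members every Ls174 control library was above its level, and 1 of those was called higher. RNU1-103P, with 0, 0 and 2 counts in Ls174 and 15, 20 and 12 in HepG2 control, had the largest log2 difference among those called, with mean CPM of 0.171 and 7.11, a pooled ratio of 27.6 with a counting interval of 7.23 to 235 and an edgeR adjusted p of 0.00774. RNVU1-18, with 1, 2 and 2 counts against 26, 13 and 16, differed by 3.65 ± 0.61 (edgeR adjusted p = 0.00215) on the log2 scale. RNVU1-9, RNU1-3 and RNU1-28P differed by 3.32 ± 0.86, 3.26 ± 0.88 and 3.21 ± 0.62, with edgeR adjusted p values of 0.0221, 0.0267 and 0.00499. In none of these genes did the lines overlap. RNU1-125P was at 81.4 ± 15.9 CPM in HepG2 and 13.8 ± 4.3 CPM in Ls174 control cells (edgeR adjusted p = 0.00124), and IL32, whose counted region overlaps that window, at 222.6 ± 55 and 37.6 ± 3.63 CPM. Of the 10, 5 were called in every fit without 1 library (RNU1-103P, RNU1-125P, RNVU1-18, RNU1-27P and RNU1-28P), and without HepG2 control 3 or Ls174 control 2 the count was 5. By adjusted p, the fit without HepG2 control 3 called 1449 of 12766 genes higher and 823 lower. The fit without Ls174 control 2 called 1386 of 12361 genes higher and 748 lower. RNU6-618P and RNU6-8 overlapped between the lines.

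Among treated cells 35 members passed the filter, and 31 were higher in HepG2 HME than in Ls174 HME cells and 1 lower, where 29.4% of 11914 genes were called higher and 27.1% lower. By adjusted p the counts were 31 and 0, against 28.6% and 26%, and 30 of the 31 were called in every fit without 1 library. The exception was RNU6ATAC (edgeR adjusted p = 0.0166, and 0.0619 without Ls174 HME 1). Of the 35, 29 passed the filter only through HepG2 HME or a mix, and they held 27 of the 31 calls. In 6 members every Ls174 HME library was above its level, of which 4 were called higher and 1 lower. RNVU1-15, RNVU1-19 and RNVU1-16 gave 0 counts in every Ls174 HME library and were at 5.51 ± 1.15, 5.33 ± 0.462 and 4.72 ± 0.108 CPM in HepG2 HME cells, at least 5.05-fold, 4.88-fold and 4.32-fold above the floor. RNU5E-6P, with 1 count in the Ls174 HME libraries, had a pooled ratio of 63.7, and RNU1-1 differed by 5.15 ± 0.29 on the log2 scale (edgeR adjusted p = 2.19e-07). RNU2-2P differed by 3.98 ± 0.53 (edgeR adjusted p = 9.28e-05) and RNU4ATAC by 2.84 ± 0.44 (edgeR adjusted p = 0.000269). Over the 35 members that passed, a set shaped by the filter, the median log2 difference was 3.4, or 3.22 with the 3 genes at 0 set to their bound, and that of all genes was 0.01. RNU6-817P was the gene that was lower, at 1.75 ± 2.16 CPM in HepG2 and 5.6 ± 0.745 CPM in Ls174 HME cells (unadjusted p = 0.0357, edgeR adjusted p = 0.0629). RNU6-8, RNU6-2 and RNU6-618P overlapped.

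Proteins that build, process and carry snRNAs were examined in 7 lists written from general knowledge, with 130 genes in the files. In HepG2 cells 124 passed the filter, of which 8 were called higher and 2 lower with HME at the thresholds of the study, below the shares of 11.3% and 10.9% over all genes, and 0 by adjusted p in edgeR. DESeq2 called 3 by adjusted p, BRF2 and PAPD5 higher and INTS1 lower, against 623 higher and 410 lower of all 11343 genes. In Ls174 cells 126 passed, of which 3 were called higher and 2 lower, against 4.11% and 7.85% over all genes, and 0 by adjusted p in edgeR. DESeq2 called 1, POU2F1, lower, against 143 higher and 291 lower of all 11319 genes. These 4 genes were named after their values were seen. The median log2 fold change over the lists was 0.08 in HepG2 and 0.03 in Ls174 cells, near that of all genes. By function, the 16 Sm and LSm core proteins, which form the ring on the RNA, had 0 calls in HepG2 cells and a median of -0.19, and the 21 tested proteins of the U1, U2 and minor particles and the 16 of the U4/U6.U5 tri-snRNP also had 0, with medians of -0.08 and 0.07. The 14 tested Integrator subunits, which cut the 3′ end, had 1 call higher and 1 lower (median 0.04), and the 13 promoter factors 3 higher and 1 lower (median 0.51). The 20 factors of export, Sm loading and cap change had 3 higher and 0 lower (median 0.3), and the 24 of 3′ trimming and the nuclear exosome 1 higher and 0 lower (median 0.13). In Ls174 cells the calls were 2 higher and 1 lower in the tri-snRNP list, 0 and 1 among the promoter factors and 1 and 0 in the trimming list, with 0 in the other 4.

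Among 13106 genes of other biotypes with 10 or more counts in at least 3 libraries, the profile most like the summed log2 CPM of the members over the 12 libraries was that of MOSPD1 (Pearson r = 0.972), and among the next were MIR4435-1HG (0.969), MTRNR2L1 (0.967) and RP1-266L20.2 (0.965). These values are a description over 12 libraries that fall into 4 groups, with HepG2 HME far above the rest, so that any gene high in that group will score high.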

How the data were processed

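RNA of HepG2 and Ls174 cells, 3 biological replicates per group by the methods of the study, was sequenced with a 3′ mRNA kit on an Ion Proton instrument. By the methods of the study, the authors used FASTQC for read quality, Hisat2 with its defaults for alignment to hg19, and metaseqR2 for the statistics. How reads were counted is not given in the sources used here. The submitters' processing notes also name Bowtie2 and Trimmomatic. The deposited values are raw counts per 3′ region, summed here per gene. The members and gene lists were chosen with earlier results of these data known.

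Counts were scaled by TMM and tested with edgeR 4.0.16 (R 4.3.3) quasi-likelihood fits within each pair of groups, after filterByExpr, with Benjamini-Hochberg adjustment over all genes tested. The SE is the log2 fold change divided by the root of the F statistic. Genes named were the 2 members with the largest summed count per type, members without the suffix P, RNU2-2P and, per comparison, up to 5 largest increases and decreases by adjusted p without overlap. RNU1-27P, RNU6-11P, RNU6-37P, RNU6-817P, RNU2-6P, RNU2-38P and RNU4-58P were added after their values were seen. Depth was 1790841 to 3656662 counts per library. Floors are 3 counts, and intervals are exact 95% limits that cover counting error only. Sequences came from GRCh37. The alternatives were DESeq2 1.42.0, other scalings, no filter, 1 fit of all 12 libraries, a replicate block and leaving out each library. The procedure was tested on simulated data. The HepG2 test found 35 of 100 genes changed 2-fold and 98 of 100 changed 4-fold, and the interaction test 6 and 76. Some genes and sequences are not reported here.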

Additional observations from a re-analysis of the deposited data

How the results depend on the processing

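The count of snRNA genes called depended on the filter, on leaving out a library and, in Ls174 cells, on fitting all libraries together. With all genes of 1 count or more, the unadjusted calls were 57 in HepG2 cells, 12 in Ls174 cells, 31 between control lines and 63 between treated lines, and the adjusted calls were 41, 4, 22 and 54, with 3 for the interaction. This setting tests more members. Between control lines 28 of 124 members were called higher and 3 lower, against 3811 and 2641 of 24571 genes. By adjusted p the counts were 20 and 2, against 2526 and 1643. Between treated lines 59 of 127 members were higher and 4 lower, against 5032 and 4277 of 24530 genes. By adjusted p they were 52 and 2, against 4444 and 3670. For the interaction 2 members were higher and 1 lower by adjusted p, against 271 and 96 of 27326 genes. DESeq2 gave 2 adjusted calls in Ls174 cells, against 143 higher and 291 lower over all genes. For the interaction it gave 1, against 309 and 71 over all genes. A fit of all 12 libraries together gave 17 unadjusted and 2 adjusted calls in Ls174 cells. That single fit tested 42 members, and of all 13040 genes it called 453 higher and 849 lower, and 23 and 77 by adjusted p. Without each library in turn, the unadjusted calls ran from 22 to 37 in HepG2 cells, 2 to 9 in Ls174 cells, 12 to 16 between control lines, 30 to 39 between treated lines and 3 to 14 for the interaction (3 without Ls174 control 3, 6 without HepG2 HME 1). The adjusted calls ran from 9 to 35, 0 to 4, 5 to 12, 30 to 38 and 0 to 0. The HepG2 adjusted count was 11 without control 1, 12 without control 3 and 10 without HME 1. Over all genes these 3 fits called 202 higher and 46 lower, 132 and 23, and 138 and 6 by adjusted p. Apart from fewer samples, the cause was not tested. The ratio of summed counts ran from 4.12 to 5.42 in HepG2 cells and 1.55 to 2.06 in Ls174 cells. Of the values for single genes under an alternative, 1109 kept their direction and side of the threshold, 84 lost and 32 gained a call, and 0 reversed.

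Replicate numbers shared by groups did not pair the samples, with correlations of deviations of -0.17, 0.09 and -0.12 in HepG2 and -0.03, -0.01 and -0.05 in Ls174 cells. With the replicate number as a block, adjusted calls were 22, 0, 3 between control lines, 31 between treated lines and 0 for the interaction. Counts near the floor limit what could be seen for most U4, U5 and U7 copies.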
